A study of Mus musculus with 6 samples.

Results

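The cytosolic ribosomal proteins of the mouse heart were followed through their messenger RNAs. Genes were taken by symbol: names of the form Rpl or Rps followed by a number and the letters a, l or x, together with Rplp0, Rplp1, Rplp2 and Rpsa, with rows marked as pseudogenes left out. This gave 88 genes of the 29385 in the tables. Of these, 77 were core ribosomal protein genes (46 of the large and 31 of the small subunit), 6 were paralogs with a tissue-restricted or little-known role, and 5 were retrocopies, processed copies of another member that lie elsewhere in the genome. The test covered 87 members, and Rpl32l, with at most 0.138 CPM in any library, did not pass the filter on low values.

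Poly(A) RNA of 6 mouse heart samples was sequenced, 2 in each of 3 groups, 12 months after an administration to newborns. The gene Myh6 codes for alpha myosin heavy chain, the main heart myosin of adult mice, and all 6 samples carried an altered Myh6 allele that the labels call RH. The first group was Myh6 RH/+ with vehicle, the second Myh6 RH/RQ with vehicle, and the third Myh6 RH/RQ with AAV-hpCas13d. AAV is adeno-associated virus, and hpCas13d is a form of the RNA-cutting enzyme Cas13d. The labels spell out neither allele, and the promoter that drives hpCas13d and the strain, sex and number of animals are not given in the sources used here. Whether samples within a group were separate mice is not stated, and the p-values can speak only for the spread among the samples at hand. Levels are in CPM, the reads of a gene scaled to the same total in every library. Differences were tested with limma on log2(CPM + 1) in 1 fit over all 16804 genes that passed a low-count filter, and "rose" or "fell" is used only at a Benjamini-Hochberg adjusted p under 0.05.

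A ribosome joins a large and a small subunit, each built from ribosomal RNA and a set of proteins, nearly all of them present in a single copy. Cells make these proteins in step: their messenger RNAs begin with a stretch of pyrimidines, the terminal oligopyrimidine or TOP motif, through which the kinase mTOR sets how strongly they are translated. In striated muscle the large-subunit protein Rpl3 has a paralog, Rpl3l, that is found in heart and skeletal muscle and can take its place in the ribosome.

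The libraries held between 36269261 and 51017058 reads. Mitochondrially encoded transcripts made up 17.2% to 22.4% of them, the least in treated replicate 1. The 9 cardiomyocyte markers were abundant throughout, with summed levels from 59018 to 69190 CPM, and 0 of them were called in any comparison. All 5 listed sex-linked genes were called wherever the RH/RQ vehicle group was one side of a comparison, and 0 were called otherwise. Xist was nearly absent from the RH/RQ vehicle pair, with 0.274 and 0.0516 CPM. It reached 280 and 265 CPM without the RQ allele, and 299 and 326 CPM after AAV-hpCas13d. Y-linked Ddx3y went the other way, at 85.2 CPM in each RH/RQ vehicle library and 0 in every other library. These levels divide the libraries exactly as RH/RQ vehicle against the other groups. In comparisons with that group, a difference in sex cannot be told apart from genotype or from treatment. In bulk tissue, fewer cells of a type and less RNA per cell cannot be told apart either. The 3 comparisons share libraries in pairs and are not independent of each other.

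The start of the gene is shown for 4 members because the TOP stretch is the feature that these genes are known to share, and because 3 of them belong to the shortest and most mobile members described later. Sequences are from RefSeq promoters on GRCm38.p6, on the strand of the gene, from 60 bases before the annotated start through the first 20 transcribed bases. Capitals mark a run of at least 6 pyrimidines that starts with C within 25 bases of that start.
Rps27, chr3:90213629-90213708, minus strand: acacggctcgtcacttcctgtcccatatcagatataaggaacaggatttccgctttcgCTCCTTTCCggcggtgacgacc
Rpl38, chr11:114668520-114668599, plus strand: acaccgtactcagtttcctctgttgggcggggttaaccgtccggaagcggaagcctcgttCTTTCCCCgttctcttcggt
Rps21, chr2:180257319-180257398, plus strand: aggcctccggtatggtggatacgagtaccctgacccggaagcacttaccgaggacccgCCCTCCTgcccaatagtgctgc
Rpl3l, chr17:24727766-24727845, plus strand: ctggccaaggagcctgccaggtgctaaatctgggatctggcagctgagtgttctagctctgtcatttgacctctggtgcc
The runs measured 9 bases in Rps27, 8 in Rpl38 and 7 in Rps21. By the same search Rpl3l, the muscle paralog, had no such run.

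Promoters of 300 bases were found for 64 of the 88 members, which had 76 between them. A pyrimidine run of this kind lay near the start of 51 of the 76 (67.1%), against 36.7% of all 32851 promoters in the table. CCGGAAG, the core bound by ETS factors such as GABP, was present on either strand in 35.5% of the member promoters and in 8.86% of all promoters. AANATGGC, a core of the YY1 site, was present in 22.4% against 6.05%, and TATAAA in 10.5% against 13.6%. The motifs were searched one by one and may overlap. Both Rpl38 and Rps21 held the ETS core and Rps27 the YY1 core. A match describes letters in a window, not a bound site.

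Levels can be compared between genes only per length, so CPM was divided by the length of the principal transcript in kilobases. Among the highest on this scale were Rplp1 (732 CPM per kilobase), Rps15 (680), Rpl41 (645) and Rps2 (630). Rplp1 belongs to the stalk, the flexible arm of the large subunit that recruits elongation factors. Its stalk partners stood at 519 CPM per kilobase for Rplp0, the base of the arm, and at 157 for Rplp2. Rpsa, a small-subunit protein also known as a laminin receptor, stood at 275 CPM per kilobase. Among tested members the lowest were Rpl36al (0.157 CPM per kilobase), Rpl39l (0.232), Rpl24 (0.472), Rps3a2 (1.41) and Rps3a3 (1.47). The last 2 are retrocopies of Rps3a1, which stood at 429 CPM per kilobase. Reads of a gene and of its near-identical copies cannot be divided with certainty.

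Of the 77 core genes, 74 had a mean between 69.9 and 705 CPM, and 3 stood far below. Rpl24 was at most 0.431 CPM, Rps10 at most 2.01 CPM and Rpl13a at most 6.92 CPM in any library. In the GENCODE M21 annotation of GRCm38, 47.0% of the exon bases of Rpl24 are shared on the same strand with Gm28037, 35.4% of those of Rpl13a mainly with Gm45713, and 20.6% of those of Rps10 with RPS10-NUDT3. The paralog Rpl36al shares 24.5% with Gm49383. Whether shared exons lowered these counts was not tested, and the submitters' annotation is not given in the sources used here.

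The summed level of all members was 17335 and 17015 CPM for RH/+ vehicle, 16602 and 15351 CPM for RH/RQ vehicle, and 20997 and 17431 CPM for treated hearts. Treated replicate 1 stood apart: its sum exceeded that of treated replicate 2 by more than the whole range of the other 5 libraries. It was also the library with the lowest mitochondrial share (17.2%), and as a share of nuclear reads its members took 2.53%, against 2.18% in treated replicate 2 and 1.98% to 2.19% in the other libraries. Between these 2 treated libraries, 82 of 87 members were higher in replicate 1, by a median of 0.25 on the log2 scale, against 0.05 for all genes. The members' medians and some results for single genes are therefore also given without this library. The other results below include it and were not all repeated without it.

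The ratio of summed CPM of large to small core genes lay between 1.24 and 1.28 in every library. It was 1.27 and 1.28 in the RH/RQ vehicle libraries, above the 1.24 to 1.26 of the other 4. Its mean was 1.25 ± 0.0137 in RH/+ vehicle, 1.28 ± 0.00422 in RH/RQ vehicle and 1.25 ± 0.0109 in treated hearts (SD, n = 2 each). These ratios describe the libraries and were not tested.

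**Figure D1:**
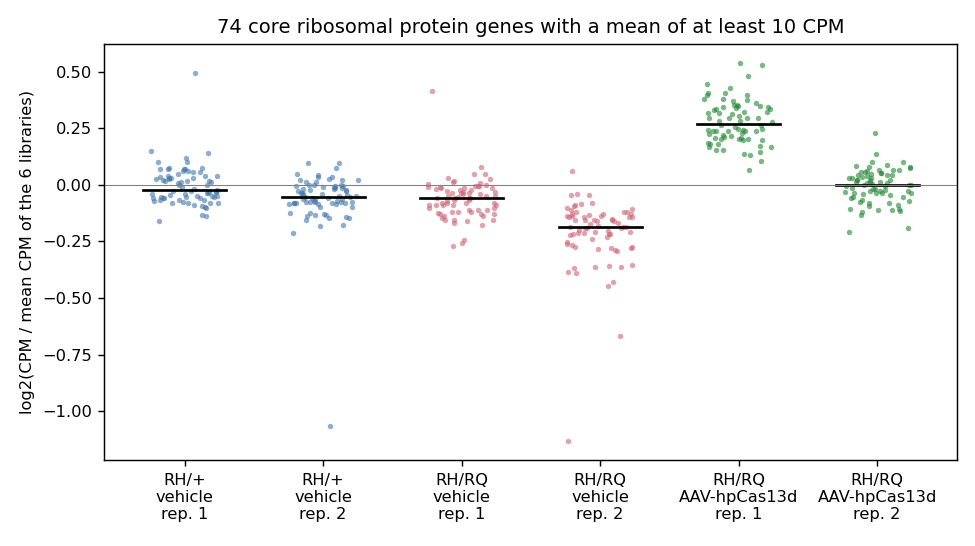
Level of each of the 74 core genes that averaged 10 CPM or more, as log2 of its CPM over its mean in the 6 libraries (y axis), by library (x axis); each point is a gene and the black line is the median. The median was 0.27 in treated replicate 1 and -0.19 in RH/RQ vehicle replicate 2, the highest and the lowest of the 6, and the points farthest from the rest in the 4 vehicle libraries are Rps27a.

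The first comparison set RH/RQ vehicle hearts against RH/+ vehicle hearts, which have a + allele in place of RQ. Rpl3l and Rps29 fell, and no member rose. The 2 falls among 87 members stood beside 1.51% of all tested genes called lower, and the 0 rises beside 3.48% called higher (limma, adjusted p under 0.05). The split of calls over all genes depends on the scaling: limma called 585 higher and 253 lower, edgeR 524 and 394, DESeq2 453 and 457, and limma with RLE factors 513 and 410. Log2 fold changes of the members had a median of -0.09, against 0.04 for all genes, and 16 of 87 were above 0. With TMM or RLE factors 10 were above 0, and with CPM over nuclear genes 29. Both RH/RQ libraries lay below both RH/+ libraries for 37 members, a pattern that 18.5% of all tested genes showed.

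Rps29, a zinc-binding protein of the small-subunit head (chromosome 12, 69157722 to 69159186, minus strand, GRCm38), was at 210 and 179 CPM (194 ± 21.6, mean and SD, n = 2) for RH/+ and at 160 and 120 CPM (140 ± 28.8) for RH/RQ vehicle hearts. The groups did not overlap (log2 fold change -0.48, SE 0.13, limma adjusted p = 0.038). DESeq2 did not call it (adjusted p = 0.218), nor did limma without RH/+ replicate 1 (adjusted p = 0.275) or without RH/RQ vehicle replicate 2 (adjusted p = 0.43). Rps27, another small-subunit protein with a zinc finger (chromosome 3, 90212522 to 90213651, minus strand), was at 106 and 90.7 CPM against 87.0 and 70.0 CPM. Its log2 fold change was -0.33 (SE 0.11), and it did not pass (limma adjusted p = 0.0998), while edgeR gave an adjusted p of 0.0458 and DESeq2 of 0.0243. Rpl36, a small protein of the large subunit (chromosome 17, 56613416 to 56614243, plus strand), was at 157 and 158 CPM against 128 and 126 CPM. It had a log2 fold change of -0.30 (SE 0.11), short of the threshold with limma (adjusted p = 0.116) and past it with DESeq2 (adjusted p = 0.0291). Rpl38, a large-subunit protein known for its part in the translation of patterning genes, did not pass (log2 fold change -0.27, SE 0.13, limma adjusted p = 0.274).

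The members with the largest positive differences in this comparison were mostly low in level, and none passed. The retrocopy Rps4l stood at 13.4 and 12.7 CPM for RH/+ and at 18.7 and 15.9 CPM for RH/RQ vehicle hearts (log2 fold change 0.38, SE 0.14, limma adjusted p = 0.133). Rps3a2 (0.27), Rpl13a (0.25), Rps10 (0.19) and Rpl3 (0.16) followed on the log2 scale. Rps4x, the X-linked gene that Rps4l resembles, did not pass either (log2 fold change -0.08, SE 0.09, limma adjusted p = 0.713). The 4 core genes on the X chromosome (Rpl10, Rpl36a, Rpl39 and Rps4x) had a median of -0.05, beside -0.09 for all core genes.

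The second comparison was within Myh6 RH/RQ, between hearts given AAV-hpCas13d and hearts given vehicle. Rps29, Rps27 and Rpl36 rose, and no member fell. These 3 rises among 87 stood beside 1.22% of all tested genes called higher, and the 0 falls beside 0.827% called lower. Over all genes limma called 205 higher and 139 lower, edgeR 181 and 200, and limma on CPM over nuclear genes 166 and 205, so this split also depends on the scaling. The members had a median log2 fold change of 0.25, against 0.04 for all genes, and 82 of 87 were above 0; with each other scaling tried the count was 81. Both treated libraries lay above both RH/RQ vehicle libraries for 58 members, a pattern shown by 26.2% of all tested genes.

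Rps29 reached 275 and 196 CPM in treated hearts, above the 160 and 120 CPM of RH/RQ vehicle hearts (log2 fold change 0.74, SE 0.13, limma adjusted p = 0.0025). Its treated mean was 235 ± 55.5 CPM (SD, n = 2). Rps27 reached 117 and 103 CPM against 87.0 and 70.0 CPM (log2 fold change 0.48, SE 0.11, limma adjusted p = 0.0181). For Rpl36 the treated libraries were at 200 and 151 CPM against 128 and 126 CPM (log2 fold change 0.45, SE 0.11, limma adjusted p = 0.0244). In all 3 genes the treated libraries lay above the vehicle libraries and replicate 1 was the higher of the treated pair. On the recovered reads edgeR called Rps29 and Rps27 but not Rpl36 (adjusted p = 0.0567), and DESeq2 called Rps27 and Rpl36 but not Rps29 (adjusted p = 0.123).

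How many members rose depended on single libraries, and so did the size of their difference. Without treated replicate 1 the members' median log2 fold change was 0.12, against 0.02 for all genes. Without treated replicate 2 the members' median was 0.40, against 0.07 for all genes. Of the RH/RQ vehicle libraries, omitting replicate 2 gave medians of 0.18 and 0.01, and omitting replicate 1 gave 0.31 and 0.08. In each of these 4 cases the members' median exceeded that of all genes.

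**Figure D2:**
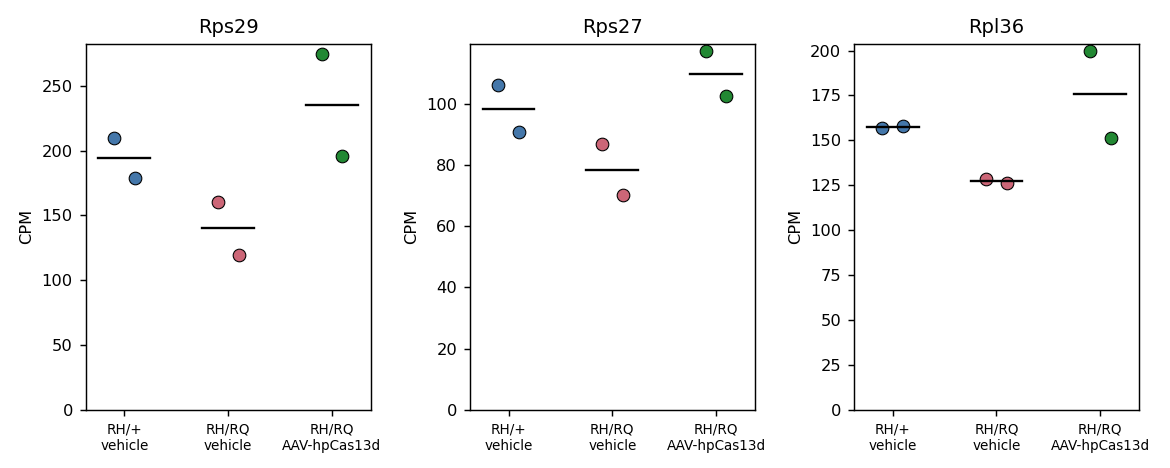
CPM (y axis, from 0) of Rps29, Rps27 and Rpl36 in the 3 groups (x axis); each point is a library and the black line is the group mean. In each panel both treated libraries lie above both RH/RQ vehicle libraries, for Rps29 at 275 and 196 against 160 and 120 CPM.

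Other members with large positive differences on treatment did not pass. Rps21, a small-subunit protein needed for late processing of its ribosomal RNA, was at 240 and 150 CPM in treated hearts against 153 and 128 CPM. The treated and vehicle values overlapped, and the log2 fold change was 0.44 (SE 0.14, limma adjusted p = 0.129). At the other end, Rpl13a (-0.19), Rps4l (-0.06) and Rpl7l1 (-0.04) had log2 fold changes below 0 and did not pass. Among the 74 well-expressed core genes the smallest difference was that of Rpl3 (0.08), and all 74 were above 0. The stalk genes had log2 fold changes of 0.22 (Rplp0), 0.33 (Rplp1) and 0.28 (Rplp2), and Rpsa of 0.26, none of them past the threshold.

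Treated RH/RQ hearts were last set against RH/+ vehicle hearts, a comparison in which the listed sex-linked genes were not called. No member rose or fell, beside 2.33% of all tested genes called higher and 0.53% called lower by limma. An unadjusted limma p under 0.05 was reached by 17 of 87 members, beside 2544 of all 16804 tested genes. Both edgeR and DESeq2 called 0 members. The overall split was 391 higher and 89 lower with limma, 248 and 163 with edgeR, and 229 and 189 with DESeq2. The members' median log2 fold change was 0.17, against 0.08 for all genes, with 86 of 87 above 0. The difference was smaller under other scalings: with TMM factors the medians were 0.064 and -0.0028, and 70 members were above 0. Both treated libraries lay above both RH/+ libraries for 38 members, as 35.0% of all tested genes did.

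The size of this difference rested on treated replicate 1. Without it the members' median was 0.029, below the 0.059 of all genes, with 54 of 87 above 0. Without treated replicate 2 the median was 0.31, against 0.11. The named genes with the largest differences were Rps27a (0.50), Rps10 (0.41), Rps3a2 (0.36), Rps4l (0.32) and Rps12 (0.31), none of which passed. Rps12, a small-subunit protein, was at 112 and 87.5 CPM in treated hearts against 83.6 and 75.9 CPM (limma adjusted p = 0.177). Rpl3l alone was below 0 (-0.16), and it was at 0.032 without treated replicate 2.

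Rpl3l and Rpl3 were set side by side. Rpl3l was at 206 and 225 CPM for RH/+, at 160 and 153 CPM in RH/RQ vehicle and at 221 and 169 CPM in treated hearts (chromosome 17, 24727820 to 24736143, plus strand). The RH/RQ vehicle libraries were the lowest and the treated libraries lay far apart from each other. Rpl3 was at 182 and 181, at 197 and 208, and at 209 and 219 CPM in the same order (chromosome 15, 80077791 to 80091868, minus strand), lowest in RH/+. In RH/RQ vehicle against RH/+ hearts Rpl3l fell by 0.46 on the log2 scale (SE 0.11, limma adjusted p = 0.0111), and edgeR and DESeq2 called it too. The call was lost without RH/+ replicate 2 (limma adjusted p = 0.115) and without RH/RQ vehicle replicate 2 (limma adjusted p = 0.0815). Rpl3 did not pass in that comparison (log2 fold change 0.16, SE 0.09, limma adjusted p = 0.391). With treatment Rpl3l did not pass (log2 fold change 0.30, SE 0.11, limma adjusted p = 0.198), and the log2 fold change was 0.11 without treated replicate 1 and 0.49 (limma adjusted p = 0.00434) without treated replicate 2.

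As a share of the reads of both genes, Rpl3l made up 53.2% and 55.4% in RH/+, 44.8% and 42.4% in RH/RQ vehicle, and 51.4% and 43.5% in treated hearts. The 95% Wilson intervals cover counting error only. They ran, for example, from 52.4% to 54.0% in RH/+ replicate 1 and from 41.6% to 43.2% in RH/RQ vehicle replicate 2. The group means were 54.3% ± 1.61, 43.6% ± 1.70 and 47.4% ± 5.55 (SD, n = 2 each). Dividing reads by transcript length moved these means by less than 1 percentage point, to 53.9%, 43.1% and 47.0%. The share thus separated RH/+ from RH/RQ vehicle by 10.7 percentage points without overlap. The treated libraries fell on either side: replicate 1 lay near RH/+ and replicate 2 inside the range of RH/RQ vehicle. The share was not tested beyond the fits of its 2 genes.

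**Figure D3:**
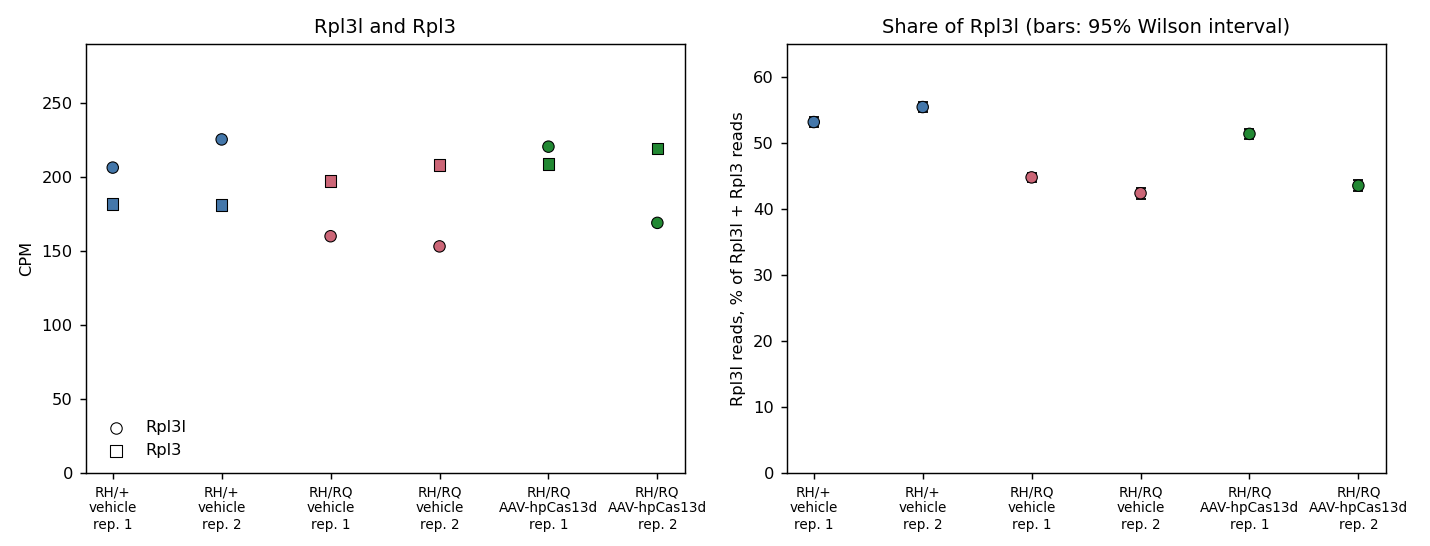
Left, CPM (y axis, from 0) of Rpl3l (circles) and Rpl3 (squares) in each library (x axis); right, reads of Rpl3l as a percentage of the reads of both genes, with 95% Wilson intervals that are about the size of the points. Rpl3l exceeds Rpl3 in both RH/+ libraries and in treated replicate 1, and lies below it in the other 3 libraries.

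None of the other paralogs passed in any comparison. Rpl22l1, a paralog of the RNA-binding protein Rpl22, was at most 13.0 CPM, and Rpl22 between 137 and 174 CPM. Rps27l, which differs from Rps27 in few residues, was at 52.7 and 41.6 CPM for RH/+, 52.5 and 41.4 CPM in RH/RQ vehicle and 57.5 and 47.9 CPM in treated hearts. Its log2 fold changes were -0.01 for RH/RQ vehicle against RH/+ and 0.17 with treatment, beside -0.33 and 0.48 for Rps27. Rpl7l1, a relative of Rpl7 that works in ribosome assembly, stayed between 49.2 and 57.5 CPM. Rpl39l, known from the testis, was at most 0.451 CPM, a level at which the added 1 CPM holds log2 fold changes down, and Rpl36al at most 0.387 CPM, while Rpl39 and Rpl36a lay above 60 CPM in every library. The difference between the changes of a gene and its paralog was not tested.

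Rps27a was chosen for description after its values were seen. It encodes a fusion of ubiquitin with a small-subunit protein (chromosome 11, 29545846 to 29548109, minus strand). It was at 156 and 53.1 CPM for RH/+, at 148 and 50.7 CPM in RH/RQ vehicle and at 128 and 130 CPM in treated hearts. Replicate 2 of both vehicle groups was low, 2.95- and 2.92-fold below replicate 1, and the 2 treated libraries were alike. Among 10492 genes that averaged 5 CPM or more, the gap between the replicate 1 and replicate 2 libraries of the vehicle groups was largest for this gene, 1.46 on the log2 scale, followed by 0.54 for Gm6206. The neighbouring gene Mtif2 stayed between 49.9 and 57.4 CPM. Ubb, another ubiquitin gene, showed no such step and lay between 290 and 385 CPM.

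No comparison called Rps27a, and its log2 fold change rested on which libraries were used. With treatment it was 0.57 (SE 0.34, limma adjusted p = 0.526) over all libraries, 1.33 without RH/RQ vehicle replicate 1 (limma adjusted p = 0.00126) and -0.20 without RH/RQ vehicle replicate 2. Against RH/+ the treated group gave 0.50 (SE 0.34, limma adjusted p = 0.522), and 1.27 without RH/+ replicate 1 (limma adjusted p = 0.000203). Rows marked as Rps27a pseudogenes held at most 2.87 CPM. What lowered the 2 libraries was not tested.

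**Figure D4:**
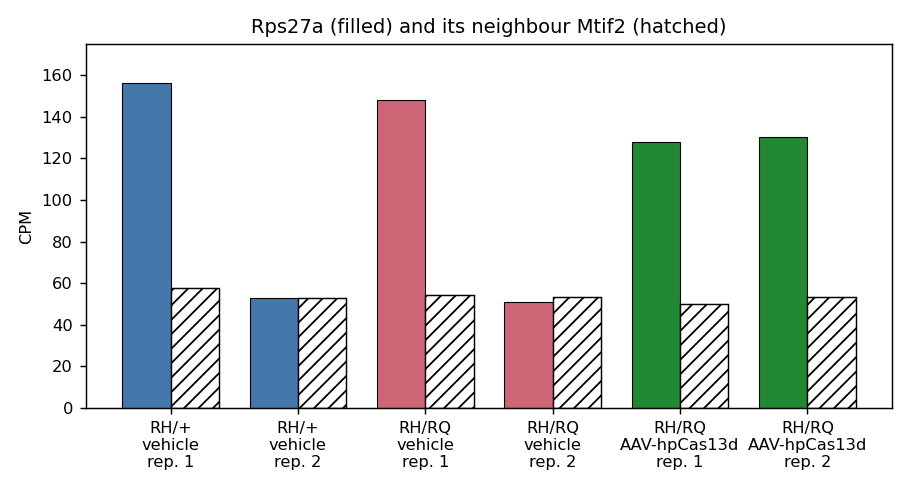
CPM (y axis, from 0) of Rps27a (filled bars) and of its neighbour Mtif2 (hatched bars) in each library (x axis). Rps27a stands at 53.1 and 50.7 CPM in replicate 2 of the vehicle groups and between 128 and 156 CPM in the other 4 libraries, while Mtif2 stays between 49.9 and 57.4 CPM.

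The 3 genes that rose with treatment are short. Rps27, Rpl36 and Rps29 have principal transcripts of 345, 383 and 390 bases. Across the 74 well-expressed core genes, the treatment log2 fold change and log10 transcript length had a Pearson r of -0.38 and a Spearman rho of -0.37, given as a description across genes that share libraries. Core genes under 600 bases (17 genes) had a median of 0.33, those of 600 to under 1000 bases (30 genes) of 0.26 and longer ones (27 genes) of 0.24. For 8564 other genes the same bins gave 0.20, 0.16 and 0.04. The core genes had the higher median in each bin, but lengths were not matched within bins and the longest bin has no upper limit. In RH/RQ vehicle against RH/+ hearts the sign was the opposite, with r = 0.34 and medians of -0.18, -0.08 and -0.10 for core genes and -0.18, -0.10 and 0.05 for the other genes. Treated against RH/+ hearts r was -0.09. The part of transcript length in these differences was not tested.

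**Figure D5:**
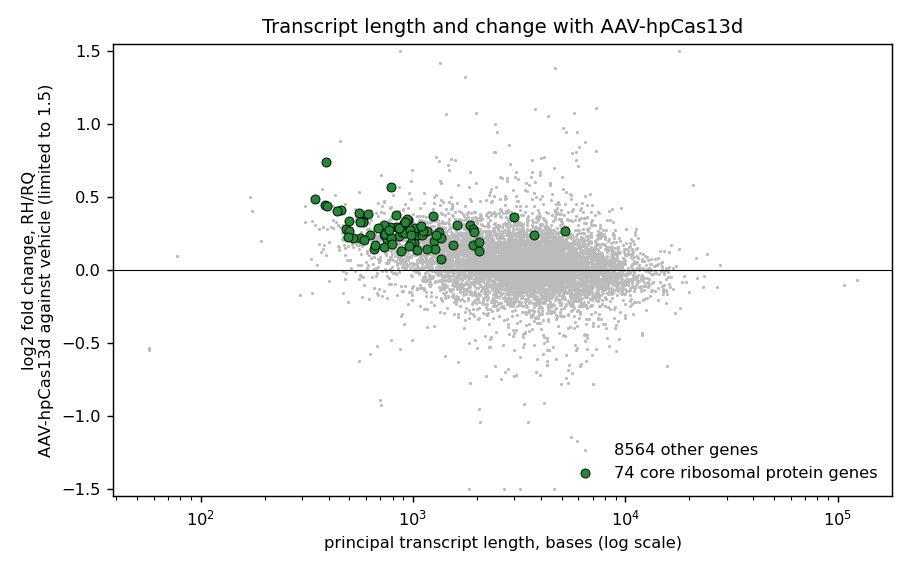
Log2 fold change of treated against vehicle RH/RQ hearts (y axis, limited to 1.5 either way) against principal transcript length in bases (log x axis) for 74 core genes (green) and 8564 other genes (grey), all averaging 10 CPM or more. All 74 core genes lie above 0, and the highest, Rps29, is among the shortest.

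Fau (fused to the small-subunit protein Rps30) and Rack1 (a scaffold on the small subunit), ribosomal genes outside the naming rule, passed in no comparison. Rack1 was at 308 and 300 CPM for RH/+, 303 and 281 CPM in RH/RQ vehicle and 393 and 313 CPM in treated hearts. Fau, at 162 and 176, 166 and 157, and 214 and 163 CPM, likewise had its highest value in treated replicate 1.

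Translation factors and other genes known for TOP messages were read from a list of 23. With treatment Eif2s3x rose and 22 of 23 were above 0, with a median log2 fold change of 0.16. Of all tested genes 1.22% were called higher and 60.5% were above 0 there, with a median of 0.04. Eif2s3x, a subunit of initiation factor 2, is X-linked: it was at 85.8 and 84.6 CPM for RH/+, 52.2 and 54.3 CPM in RH/RQ vehicle and 84.1 and 97.8 CPM in treated hearts, and it fell in RH/RQ vehicle against RH/+. In these comparisons the sex-linked genes differ as well. Y-linked Eif2s3y was at 71.0 and 62.7 CPM in RH/RQ vehicle and at most 0.0264 CPM in any other library. The part of the sex-linked difference in Eif2s3x was not tested. Eef1a1, the elongation factor that brings transfer RNA to the ribosome, was at 643 and 641 CPM in RH/+ and at 920 and 775 CPM in treated hearts, and it rose by 0.39 (SE 0.11, limma adjusted p = 0.0426).

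Of 52 ribosome biogenesis genes, Rrp12 and Heatr1 rose in RH/RQ vehicle against RH/+ hearts and none fell, a share near the 3.48% of all tested genes called higher. Both take part in making the small subunit. Rrp12 went from 24.0 and 25.3 CPM to 33.6 and 38.4 CPM (log2 fold change 0.53, SE 0.11, limma adjusted p = 0.00514). Of the 52 genes, 47 had a log2 fold change above 0, with a median of 0.13. Of all tested genes 57.8% were above 0, with a median of 0.04, and the ribosomal proteins had a median of -0.09. With treatment 0 were called and the median was 0.01, against 0.04 for all genes. For treated hearts against RH/+ 0 were called and the median was 0.14, against 0.08.

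Regulators of mTOR and of ribosome synthesis made up a list of 31, of which 30 were tested. With treatment 2 were called higher and 1 lower, beside 1.22% and 0.827% of all tested genes. In RH/RQ vehicle against RH/+ 2 were called higher and 0 lower, beside 3.48% and 1.51%. For treated hearts against RH/+ 2 were called higher and 0 lower, beside 2.33% and 0.53%. Ddit4 and Sesn1, both inhibitors of mTOR complex 1, rose with treatment. Ddit4 was at 60.1 and 68.6 CPM for RH/+, 58.6 and 54.8 CPM in RH/RQ vehicle and 165 and 124 CPM in treated hearts, a log2 fold change of 1.32 (SE 0.11) with treatment. Sesn1 went from 124 and 115 CPM to 169 and 169 CPM (log2 fold change 0.50, SE 0.09, limma adjusted p = 0.00245), and Mycn fell. Against RH/+, treated hearts had higher Ddit4 and Eif4ebp1, a repressor of cap-dependent translation. In RH/RQ vehicle against RH/+ hearts, Myc, a driver of ribosome synthesis, and the kinase gene Rps6ka3 rose. The list's medians were 0.11 for RH/RQ vehicle against RH/+, 0.02 with treatment and 0.10 for treated hearts against RH/+, beside 0.04, 0.04 and 0.08 for all genes. Mtor and Larp1, the TOP-binding repressor, passed in no comparison.

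Markers of other cell types were called in some comparisons. Of all tested genes, 3.48% were called higher and 1.51% lower in RH/RQ vehicle against RH/+. With treatment these shares were 1.22% and 0.827%, and for treated hearts against RH/+ they were 2.33% and 0.53%. Summed CPM of 5 red cell markers was 251 and 302 in RH/+, 230 and 348 in RH/RQ vehicle and 184 and 158 in treated hearts, and 3 of the 5 fell with treatment. Against RH/+, 4 of the 5 were lower in treated hearts. The sum of 5 fibroblast markers was 747 and 793, then 1258 and 1144, then 1297 and 1108 CPM, with 3 of 5 higher in RH/RQ vehicle than in RH/+ and 4 of 5 higher in treated hearts than in RH/+. Col1a1, a collagen chain, fell with treatment. Macrophage markers summed to 105 and 105, then 140 and 137, then 128 and 110 CPM, with 3 of 5 higher in RH/RQ vehicle than in RH/+. Lymphocyte markers stayed between 15.3 and 19.7 CPM in sum, and endothelial markers between 672 and 792 CPM, with 0 called. Adipocyte markers summed to at most 3.11 CPM, and Plin1, the only one of 3 tested, was lower in RH/RQ vehicle than in RH/+. Of 3 smooth muscle markers, Acta2 alone was called, lower than in RH/+ both in RH/RQ vehicle and in treated hearts. Their sums were 271 and 212 CPM for RH/+, 94.9 and 129 CPM for RH/RQ vehicle and 100.5 and 95.02 CPM for treated hearts. Of the skeletal muscle markers, Myh1 and Myh2 were at most 0.0588 CPM in any library and were not tested. Only Acta1 was tested, at 532 to 1376 CPM over the libraries, and it was higher than in RH/+ in both RH/RQ groups. With Myh1 and Myh2 near 0, Acta1 is not read here as a sign of skeletal muscle cells. The part of these cells in the ribosomal protein levels was not tested.

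In the authors' deposited table for RH/RQ vehicle against RH/+, 9 of the 84 members with an adjusted p were under 0.05. They were Rpl11, Rpl36, Rpl37a, Rpl3l, Rpl41, Rplp2, Rps2, Rps27 and Rps29. The authors' deposited table for treatment held 2 of 85, Rps27 and Rps29, and that for treated hearts against RH/+ held 0 of 85. The shares of all genes under 0.05 in these deposited tables are not given here.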

How the data were processed

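Per the submitters' processing notes, HISAT2, HTSeq, DESeq2 and the mm10 build were used; their versions, the strand setting and the annotation are not given in the sources used here. The authors deposited 3 tables with CPM for 4 libraries each and, per the file headers, their own log2 fold changes and adjusted p-values. All CPM values (100%, tolerance 0.001) were whole multiples of 1 read, so reads were recovered; 0 sample columns were unmatched. A count of 3 reads was worth 0.0588 to 0.0827 CPM.

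The main test was limma 3.58.1 (trended variance) on log2(CPM + 1) at the library totals, fitting 3 group means to 6 libraries and genes kept by filterByExpr (minimum count 10). Such fold changes understate low genes. Reported calls are two-sided at an adjusted p under 0.05. Alternatives were edgeR 4.0.16 and DESeq2 1.42.0 on recovered reads, TMM, RLE or nuclear scaling, other filters and pseudocounts (0.1 and 5), fits on only the 4 libraries compared, a replicate block, and leaving out each library. Each tool was tested on simulated data. Transcript lengths, positions and shared exons are from GENCODE M21 (GRCm38).

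Members and gene lists were chosen with earlier results of these data known. Named members were those called in any comparison, the 5 largest differences each way among members with a mean of at least 1 CPM, the 5 highest and 5 lowest per length, and the paralog pairs, stalk genes and Rpsa; for the lists, called genes. Other named genes were chosen after their values were seen. A few items covered by this rule or the lists are not reported here.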

Additional observations from a re-analysis of the deposited data

How the results depend on the processing

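Members called lower in RH/RQ vehicle against RH/+ (2) numbered 4 with DESeq2, TMM factors, RLE factors or a replicate block, 1 with a pseudocount of 5 and 0 with no filter on low genes; leaving out 1 library gave 0 to 4. Members called higher with treatment (3) numbered 0 with no filter and 20 with the block, and 0 to 52 leaving out 1 library; against RH/+ (0) the block gave 1, Rps12, and leaving out 1 library gave 0 to 29. These member counts each cover 1 direction of change. The counts of all genes that follow join both directions, and their ranges are not matched to the members' by omitted library. They therefore give no share of all genes to set beside the member counts. Each omission also leaves 1 group with 1 sample. With no filter all genes called, higher and lower together, fell from 838, 344 and 480 to 57, 15 and 7. The block gave 567 with treatment. Leaving out 1 library gave 393 to 1195, 155 to 661 and 206 to 744.

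Leaving out 1 library, the members' median ranged from 0.12 to 0.40 with treatment and from 0.029 to 0.31 against RH/+. The log2 ratio of summed CPM ranged from 0.13 to 0.39 and from 0.021 to 0.29, and the Rpl3l share difference from -0.0543 to 7.80 and from -10.8 to -2.93 percentage points. Signs of uncalled log2 fold changes turned over the same omissions. In RH/RQ vehicle against RH/+, Rps10 ranged from -0.052 to 0.44. With treatment, Rps4l ranged from -0.19 to 0.081 (0.06 without the first RH/RQ vehicle library), Rpl7l1 from -0.15 to 0.071 and Rps27a from -0.20 to 1.33. Against RH/+, Rpl3l ranged from -0.35 to 0.032 and Rps27a from -0.27 to 1.27. Unless the setting itself leaves out data, the cause was not tested.

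Sample titles within a group differ only in their first digit. What the digits they share stand for is not given in the sources used here. For the replicate block, samples of different groups were matched by the first digit. Deviations of same-digit samples correlated at 0.13, -0.02 and 0.07 across genes, so the replicate block is not taken as pairing. Over 27 results for single genes, 408 recomputed values kept direction and side of the threshold, 24 newly passed, 20 no longer passed and 7 changed sign.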

Other observations

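Rows marked as ribosomal protein pseudogenes (187 rows) belong to no comparison above. Their summed level was 397 and 390 CPM in RH/+ vehicle, 391 and 366 CPM in RH/RQ vehicle, and 482 and 396 CPM in treated hearts, with the highest value in treated replicate 1. Reads of such copies and of their parent genes cannot be divided with certainty.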
